A study of Mus musculus with 4 samples.

Results

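The genes described here are 10 members of the machinery that turns secreted procollagen into a crosslinked matrix and clears it again: Lox, Loxl1, Loxl2, Loxl3, Loxl4, Bmp1, Pcolce, Serpinh1, Tgm2 and Mrc2. Their probes were found by name, as every non-control array probe whose gene name is one of these 10. That rule found 20 of the 56605 probes on the array. Of these, 17 were bright enough to be tested, and each of the 10 genes had at least 1 tested probe among 17734 tested genes. The study asked what silencing Timp1, which encodes a secreted inhibitor of matrix metalloproteinases, does to gene expression in fibroblasts. Cells transfected with an siRNA against Timp1 (siTIMP1, 2 arrays) were compared with cells transfected with a control siRNA (siControl, 2 arrays). All 4 samples were NIH3T3 cells, an established mouse fibroblast line that the labels describe as dermal, grown with fetal calf serum at 2% of the medium. In both groups the siRNA was delivered with apatite nanoparticles, abbreviated sCA, so the carrier was common to siTIMP1 and siControl and cells without it are not part of the comparison. Each array, an Agilent 1-colour design, was hybridised with Cy3-labelled material made from the total RNA of 1 sample. The labels do not say whether replicates were separate cultures, so the spread that the p-values rest on may be technical.

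Fibrillar collagens are made as procollagens, folded in the endoplasmic reticulum with the help of dedicated chaperones, secreted, and trimmed of their propeptides outside the cell so that they can assemble into fibrils. Lysyl oxidases are copper-dependent enzymes that oxidise lysine and hydroxylysine side chains of collagen and elastin, and the aldehydes they make react to form the covalent crosslinks that give a matrix its strength. Fibroblasts make most of these proteins, and they also take collagen fragments back up through a surface receptor for breakdown in lysosomes.

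The sequences of the array probes show what was measured for these related genes. Cross-hybridisation between family members is one limit of an array, so 1 probe of each of Loxl1, Loxl2, Loxl3 and Loxl4 is shown whole, 5′ to 3′ in the sense of the transcript, with capitals marking the longest run that it shares with another of these 4 probes.
Loxl1: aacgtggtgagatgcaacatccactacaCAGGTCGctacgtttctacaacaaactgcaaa
Loxl2: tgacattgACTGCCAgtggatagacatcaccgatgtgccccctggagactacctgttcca
Loxl3: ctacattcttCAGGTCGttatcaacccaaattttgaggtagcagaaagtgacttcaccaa
Loxl4: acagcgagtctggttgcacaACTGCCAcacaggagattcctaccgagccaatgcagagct
Each of these probes is 60 bases long and the capitals cover 7 of them. Over all 31 pairs of probes from different lysyl oxidase genes the longest shared run was 8 bases. Over all 177 pairs from different members it was 9 bases. These runs compare probe with probe. No probe was compared with the transcript of another gene, so cross-hybridisation itself was not tested. In mm9, the mouse build of the array files, the Loxl1 probe lies at chr9:58138570-58138629 on the minus strand and the Loxl2 probe at chr14:70090017-70090076 on the plus strand. The Loxl3 probe spans chr6:83000426-83000598 on the plus strand and the Loxl4 probe chr19:42669867-42672019 on the minus strand. The last 2 spans are longer than 60 bases, so those probes join parts of the transcript that are apart in the genome.

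Of the other members, Bmp1, Pcolce and Serpinh1 had probes whose position bears on how their values are read. The Bmp1 probe listed only under transcript variant 1 and the one listed only under variant 2, a non-coding transcript, are shown because their values differed in sign. The third Bmp1 probe, which is listed under both variants, is not shown. The pair of Pcolce probes is shown, by the last and the first 30 bases, because they overlap, with the 17 shared bases in capitals. The Serpinh1 probes are shown by their first 30 bases because they lie on opposite strands.
Bmp1 variant 1: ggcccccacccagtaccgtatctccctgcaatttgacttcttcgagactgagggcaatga
Bmp1 variant 2: tgtgacatttcctgttgtgaagtaaaagag
Pcolce upstream: cctaggacagctgCCTGATGTCCTAGCCAG
Pcolce downstream: CCTGATGTCCTAGCCAGatacagcctcaga
Serpinh1 minus strand: ggggaggggaaatatgagcctttgttgctt
Serpinh1 plus strand: aaacaaaagttcatgactgtgatgcccaac
The Bmp1 variant 1 probe lies at chr14:70890355-70890414 and the first bases of the variant 2 probe belong to chr14:70886415-70886474, both on the minus strand. The Pcolce probes lie at chr5:138046379-138046438 and chr5:138046336-138046395 on the minus strand. The Serpinh1 probes lie at chr7:106493971-106494030 on the minus strand and chr7:106494061-106494120 on the plus strand, with 30 bases between them.

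Timp1 itself was lower in the libraries labelled siTIMP1. Its level, given here and for every gene as log2 of the processed spot signal minus the 75th percentile of its own array, was 3.28 and 2.98 in siTIMP1 cells and 8.16 and 8.54 in siControl cells. The log2 fold change was -5.22 (SE 0.158, limma adjusted p = 0.0105). At nearly the same fold the call was lost without a variance trend (adjusted p = 0.134) and without siTIMP1 replicate 1 (-5.37, adjusted p = 0.137) or siTIMP1 replicate 2 (-5.07, adjusted p = 0.184), settings in which 0 of 26015 probes were called. A single slide, scanned once, held all 4 arrays, with siTIMP1 at positions 3 and 4 and siControl at positions 1 and 2, so group and slide position cannot be told apart. The share of spots well above background was 50.4% and 45.9% on the siTIMP1 arrays and 50.7% and 52.1% on the siControl arrays. No spot was saturated, and with 2 arrays a group the number of arrays limits the precision. All 10 fibroblast markers examined were well above background on all arrays, while 0 of 4 endothelial and 0 of 4 muscle markers were. For epithelial cells 2 of 6 markers passed on all arrays, with Epcam, Cdh1, Krt18 and Krt5 not among them, and for adipocytes 2 of 4 passed, with Adipoq and Plin1 not among them. Of 5 macrophage and leukocyte markers 4 passed, with Adgre1 not among them, and the summed level of this list was 14.5 to 15.9 times the array's 75th percentile in siTIMP1 cells and 17.5 to 17.9 times in siControl cells. The summed fibroblast level was 2140 to 2147 in siTIMP1 cells and 2028 to 2150 in siControl cells, on the same scale. Their part in the results was not tested.

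No member changed past the threshold. With limma, 0 of 10 member genes had an adjusted p under 0.05, where 0.784% of all tested genes did, and 0 of 17 tested member probes did, where 0.688% of all tested probes did. The smallest adjusted p of a member gene was 0.221 and the largest 0.912. At an unadjusted p under 0.05 stood 2 of the 10 genes, Loxl1 and Bmp1, and 3 of the 17 probes, with a Lox probe added, where 11.8% of all tested genes were higher and 7.98% lower at that level. All 3 probes were higher in siTIMP1 cells, against 10.6% of all tested probes that were higher at that level.

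What the members shared was a small difference of 1 sign. All 10 had a log2 fold change above 0, where 54% of all tested genes did, although Loxl2 and Tgm2 came out at -0.01 each when the percentile was taken over detected probes. Their median was 0.17, with a range of 0.03 to 0.33, and the median over all tested genes was 0.02. Without siControl replicate 2 the members' median was 0.08. The middle of the whole distribution ran from a 25th percentile of -0.17 to a 75th percentile of 0.16, and 23.4% of tested genes lay above the members' median. In 7 of the 10, Lox, Loxl1, Loxl3, Loxl4, Bmp1, Pcolce and Mrc2, both siTIMP1 arrays lay above both siControl arrays, which held for 31% of all tested genes. With the percentile over detected probes 4 of the 10 were so placed. In that setting 23.3% of all tested probes were, against 29.8% of all tested probes in the main one. The 3 others, Loxl2, Serpinh1 and Tgm2, overlapped between the groups. These counts describe the 10 genes and carry no test of their own.

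**Figure D1:**
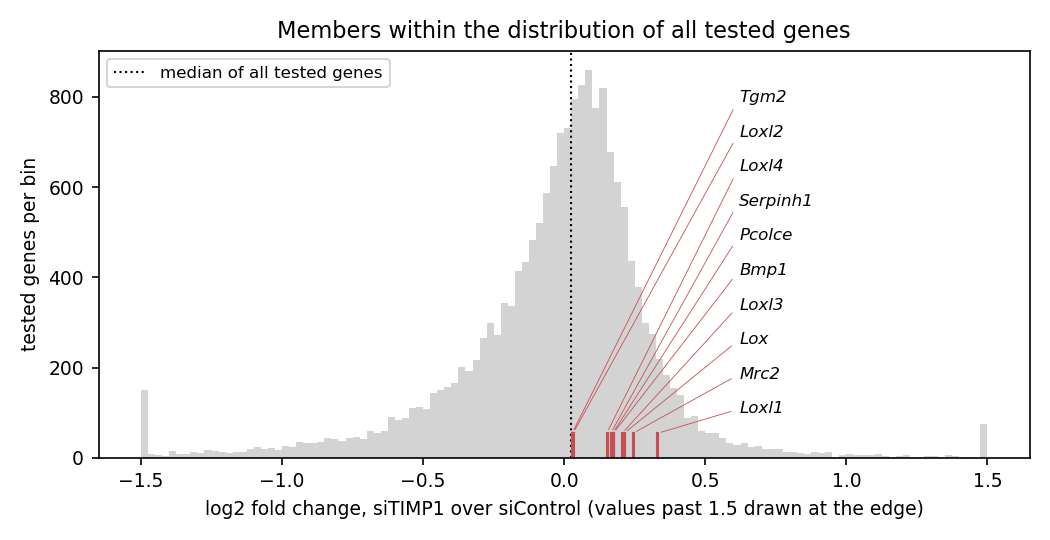
Histogram of the log2 fold change, siTIMP1 over siControl, of 17734 tested genes, with values past 1.5 drawn at the edge; red ticks mark the 10 members and the dotted line the median of all genes, 0.02. The members sit between 0.03 and 0.33, inside the body of the distribution, and Loxl2 and Tgm2 are at -0.01 each when the percentile is taken over detected probes.

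Among the lysyl oxidases, Lox encodes the founding enzyme of the family. Its level was 6.30 and 6.26 in siTIMP1 cells and 6.25 and 5.88 in siControl cells. Both siTIMP1 arrays lay above both siControl arrays, but only narrowly above siControl replicate 1. The mean was 6.28 ± 0.03 in siTIMP1 cells and 6.06 ± 0.26 in siControl cells (SD, n = 2 each), and the log2 fold change was 0.21 with a 95% interval of -0.11 to 0.53 (limma adjusted p = 0.416). The probe lies at chr18:52675748-52675807 on the minus strand, from base 4803 of the transcript. A second Lox probe, at chr18:52676912-52676971 and from base 3639 of the same transcript, gave 3.15 and 3.07 in siTIMP1 cells and 2.75 and 2.44 in siControl cells. These groups were further apart, with no overlap. The log2 fold change was 0.51 with an interval of 0.20 to 0.82, the largest of the 17 tested member probes, at an adjusted p of 0.152 in limma. The within-array difference of the upstream minus the downstream probe was -3.15 and -3.19 in siTIMP1 cells and -3.50 and -3.44 in siControl cells, a shift of 0.30 between the groups. By an exact two-sided permutation test its p was 0.333, the smallest that 2 arrays against 2 allow.

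Loxl1 encodes the family member that mice need to maintain elastic fibres. Its level was 3.40 and 3.51 in siTIMP1 cells and 3.25 and 2.99 in siControl cells, again without overlap. The siTIMP1 mean was 3.45 ± 0.08 and the siControl mean 3.12 ± 0.19 (SD, n = 2 each). The log2 fold change of 0.33 was the largest of the 10 genes, a ratio of 1.26 with a 95% interval of 1.04 to 1.52, and its limma adjusted p was 0.221. Even so, 8.44% of all tested genes had a higher log2 fold change than Loxl1.

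Loxl3, whose loss in mice disturbs palate and spine development, was at 0.57 and 0.68 in siTIMP1 cells and 0.43 and 0.41 in siControl cells. The siControl arrays were nearly equal and both siTIMP1 arrays lay above them. Its log2 fold change was 0.20 with a 95% interval of -0.03 to 0.44 (limma adjusted p = 0.317). Loxl2 encodes an enzyme known for crosslinking the type IV collagen of basement membranes. It was at -1.36 and -1.20 in siTIMP1 cells and -1.25 and -1.36 in siControl cells, so the groups overlapped. With a log2 fold change of 0.03, the interval ran from -0.30 to 0.36 (limma adjusted p = 0.912). A further Loxl2 probe was well above background on only 1 array and was not tested.

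Loxl4, the remaining member of the family, had 3 tested probes, all with low signal. The brightest, at chr19:42668733-42668792, gave -2.24 and -2.06 in siTIMP1 cells and -2.24 and -2.35 in siControl cells. The nearest arrays of the groups were equal to 2 decimals. Its log2 fold change was 0.15 with a 95% interval of -0.26 to 0.56 (limma adjusted p = 0.635). The probe in the 3′ part of the transcript, at chr19:42667320-42667379, gave -2.39 and -2.30 in siTIMP1 cells and -2.85 and -2.64 in siControl cells, without overlap and with a log2 fold change of 0.40 (adjusted p = 0.313). The probe whose sequence is shown for Loxl4 gave -4.08 and -3.22 in siTIMP1 cells and -4.00 and -3.92 in siControl cells. Here the siTIMP1 arrays stood on either side of the siControl arrays, and the log2 fold change of 0.31 had an SE of 0.373.

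**Figure D2:**
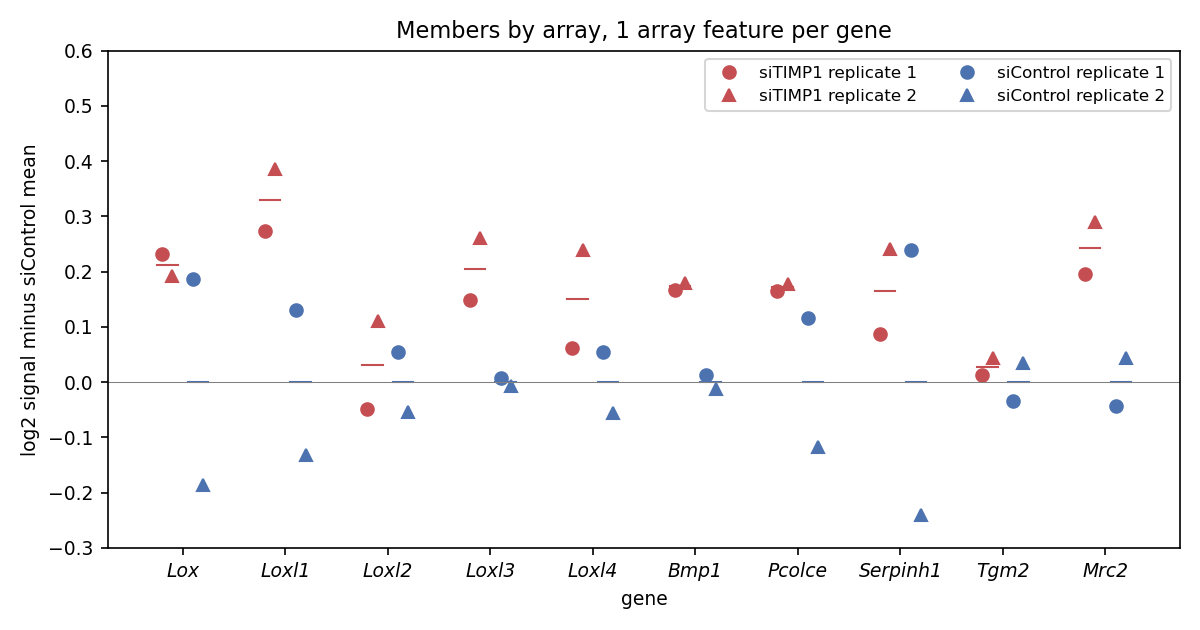
Log2 level of each member on each of the 4 arrays minus that gene's siControl mean, with siTIMP1 in red left of siControl in blue, circles for replicate 1, triangles for replicate 2 and short lines for group means. In Loxl3, Bmp1 and Mrc2 the siControl arrays lie close together and below both siTIMP1 arrays, while in Lox, Loxl1, Pcolce and Serpinh1 the siControl arrays lie further from each other.

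Bmp1 encodes the procollagen C-proteinase, which removes the C-terminal propeptides of fibrillar procollagens and also activates pro-lysyl oxidase. Its brightest probe, at chr14:70874370-70874429 and listed under both transcript variants, gave 2.96 and 2.98 in siTIMP1 cells and 2.81 and 2.79 in siControl cells. The arrays of each group nearly coincided and the groups did not overlap, with means of 2.97 ± 0.01 in siTIMP1 cells and 2.80 ± 0.02 in siControl cells (SD, n = 2 each). The log2 fold change was 0.17, with a 95% interval of 0.01 to 0.34 and a limma adjusted p of 0.256. The variant 2 probe gave 2.33 and 2.59 in siTIMP1 cells and 2.18 and 2.25 in siControl cells, a log2 fold change of 0.25 (adjusted p = 0.311). The variant 1 probe was the only tested member probe with a negative sign. It gave 0.74 and 0.81 in siTIMP1 cells and 0.88 and 0.81 in siControl cells, so the groups nearly touched, at a log2 fold change of -0.07 (adjusted p = 0.688). The within-array difference of the variant 2 minus the variant 1 probe was 1.59 and 1.78 in siTIMP1 cells and 1.29 and 1.44 in siControl cells. That shift of 0.32 had an exact two-sided permutation p of 0.333, which is the smallest possible here. The brightest probe shifted against the negative one by 0.24 in the same comparison (exact two-sided permutation p = 0.333). As that probe is listed under variant 2 too, it does not compare variant 1 with itself. What the shifts reflect was not tested.

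Pcolce encodes the enhancer protein that binds the procollagen C-propeptide and speeds its removal by Bmp1. The downstream probe, which was spotted 10 times on each array, gave 6.51 and 6.53 in siTIMP1 cells and 6.47 and 6.23 in siControl cells. The upstream probe, also with 10 spots, gave 6.17 and 6.20 in siTIMP1 cells and 6.15 and 5.92 in siControl cells. In both, siControl replicate 2 was the low array and siControl replicate 1 lay just under the siTIMP1 arrays. The log2 fold changes were 0.17 (95% interval -0.05 to 0.39, limma adjusted p = 0.349) and 0.15 (adjusted p = 0.402). The shift between the 2 probes was -0.02.

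Serpinh1 encodes HSP47, the chaperone that binds folded procollagen in the endoplasmic reticulum. Its level was 6.02 and 6.17 in siTIMP1 cells and 6.17 and 5.69 in siControl cells. The siControl arrays lay further apart than the siTIMP1 arrays and the groups overlapped. For Serpinh1 the log2 fold change was 0.16, with a 95% interval of -0.26 to 0.59 (limma adjusted p = 0.612). The plus-strand probe carries the name Serpinh1 but is annotated to a different transcript, on the strand opposite to the first probe. Its processed signal was low, 26 to 38. It gave -2.57 and -2.43 in siTIMP1 cells and -2.30 and -2.82 in siControl cells. Those groups overlapped too, with a log2 fold change of 0.06 (adjusted p = 0.908).

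Tgm2 encodes tissue transglutaminase, which joins glutamine and lysine side chains of matrix proteins, a crosslink of another kind than that made by lysyl oxidases. It was at 0.39 and 0.42 in siTIMP1 cells and 0.34 and 0.41 in siControl cells, with overlap. The probe lies at chr2:157942275-157942334 on the minus strand, and its log2 fold change was 0.03 with a 95% interval of -0.20 to 0.26 (limma adjusted p = 0.883). Mrc2 encodes Endo180, the receptor through which fibroblasts take up collagen. Its tested probe, at chr11:105211978-105212037 on the plus strand, gave -0.31 and -0.22 in siTIMP1 cells and -0.55 and -0.46 in siControl cells, without overlap. For Mrc2 the log2 fold change was 0.24, with an interval of -0.03 to 0.51 and a limma adjusted p of 0.304.

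**Figure D3:**
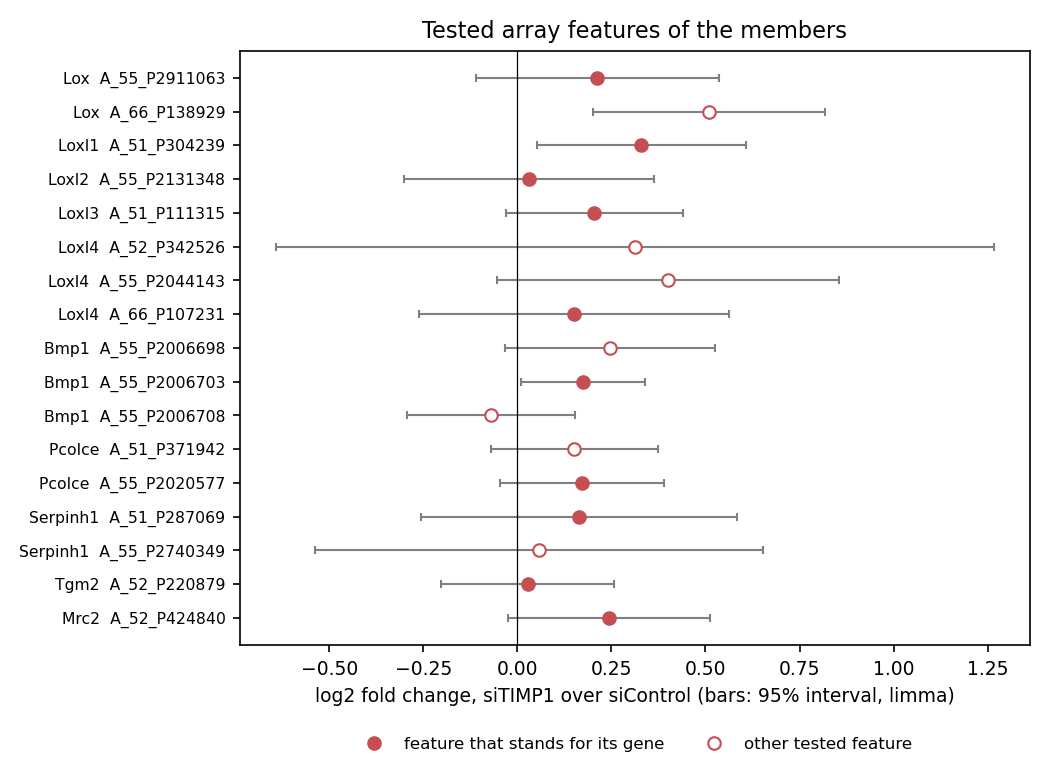
Log2 fold change, siTIMP1 over siControl, of each of the 17 tested member probes with its 95% interval from limma; filled circles mark the probe that stands for its gene. The intervals of Loxl1, the upstream Lox probe and the brightest Bmp1 probe lie above 0, and the Bmp1 variant 1 probe at -0.07 is the only estimate under 0.

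The siControl arrays were unequal in several of these genes. The difference of siControl replicate 2 minus siControl replicate 1 was -0.48 for Serpinh1, -0.37 for Lox, -0.26 for Loxl1 and -0.23 for Pcolce. For Serpinh1, Lox and Pcolce this was more than the difference between the group means, and for Loxl1 it was less. Loxl2 and Loxl4, at -0.11 each, were also lower on replicate 2, and in Loxl3, Bmp1, Tgm2 and Mrc2 the difference was between -0.02 and 0.09. In all, 8 of 10 members were lower on siControl replicate 2, where 47.5% of all tested genes were. The fibrillar collagens, the substrates of this machinery, were lower on that array in 8 of 8 tested genes, with a median of -0.48. Among the other lists described below, collagen modification was lower in 10 of 14, elastic fibre genes in 7 of 10 and fibril organisers in 8 of 12. Chaperones and export genes were lower in 6 of 11, and so was Tgm3. Propeptide removal was lower in 2 of 5 and collagen uptake and breakdown in 5 of 13, with medians of 0.47 and 0.14. Without siControl replicate 1, the log2 fold change was 0.40 for Lox, 0.46 for Loxl1 and 0.29 for Pcolce. A fit with 1 siControl array takes its within-group spread from the siTIMP1 arrays. Its p-values leave out the siControl differences given above. Without siControl replicate 2, the values were 0.02 for Lox, 0.20 for Loxl1, 0.05 for Pcolce and -0.08 for Serpinh1. Loxl3, Bmp1 and Mrc2 moved less, with log2 fold changes of 0.15 to 0.26, 0.16 to 0.19 and 0.20 to 0.29 when each array was left out in turn.

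**Figure D4:**
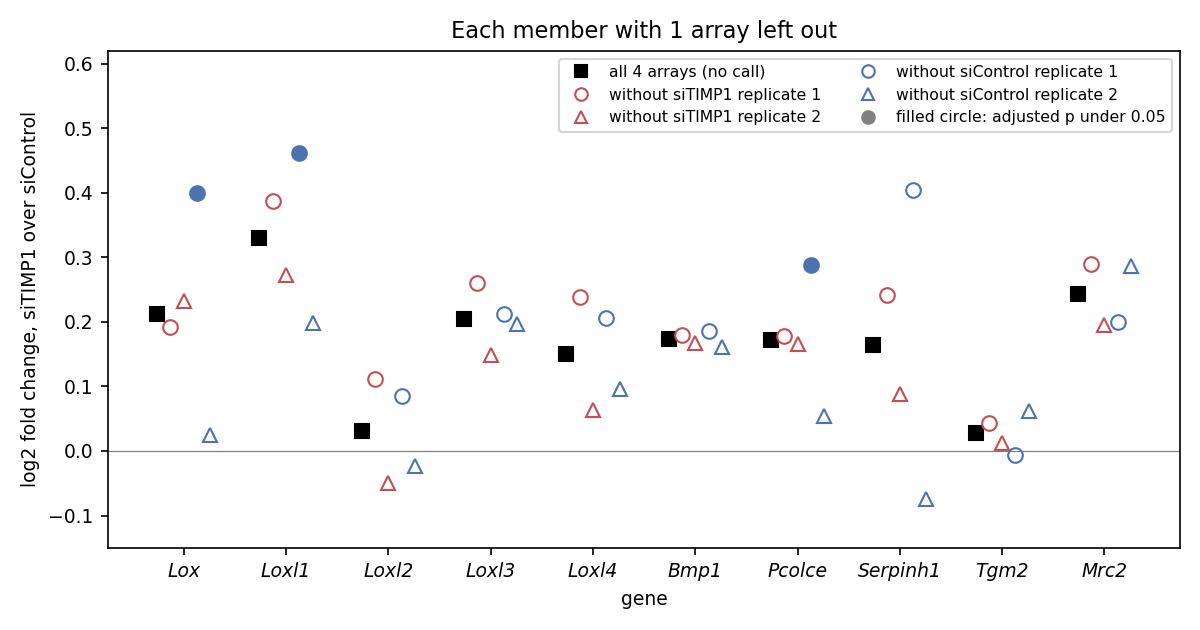
Log2 fold change, siTIMP1 over siControl, of each member with all 4 arrays (black squares) and with each array left out in turn; filled circles have an adjusted p under 0.05. Lox at 0.40, Loxl1 at 0.46 and Pcolce at 0.29 pass without siControl replicate 1, where 5.94% of all tested genes pass, while Lox lies at 0.02 and Serpinh1 at -0.08 without siControl replicate 2.

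The other genes of the pathway were taken from 8 lists drawn up by role. Of 93 listed genes 74 were tested, 45 had a log2 fold change above 0, 0 were called higher and 1 was called lower, and the median was 0.07. Over all tested genes 54% lay above 0 and 0.784% were called in either direction. At an unadjusted p under 0.05, 12 of the 74 were higher and 7 lower, where 11.8% and 7.98% of all tested genes were. The called gene was P4ha2, a subunit of the prolyl 4-hydroxylase that stabilises the collagen triple helix. Its level was 3.31 and 3.21 in siTIMP1 cells and 3.97 and 3.98 in siControl cells, well apart. It fell by 0.72 on the log2 scale (SE 0.0664, limma adjusted p = 0.0313), a value near the threshold. The call was lost without a variance trend (adjusted p = 0.153) and without siTIMP1 replicate 1 (-0.77, adjusted p = 0.178) or siTIMP1 replicate 2 (-0.67, adjusted p = 0.250), at about the same fold and with 0 of 26015 probes called.

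The 14 tested genes of collagen modification in the endoplasmic reticulum included 13 with values above 0, P4ha2 being the exception, and their median was 0.18. In this list Crtap, a partner of prolyl 3-hydroxylase, had a log2 fold change of 0.23, P3h4 0.21 and P4hb, the other prolyl 4-hydroxylase subunit, 0.19, none of them called. Of 11 procollagen chaperones and export genes 5 lay above 0, with a median of -0.07. There Fkbp10 stood at 0.27, Hspa5 at 0.25, Fkbp14 at 0.24 and Sec23a, a coat protein of transport vesicles, at -0.47. The tested probes ran from -0.41 to 0.24 for Fkbp14, 0.01 to 0.25 for Hspa5 and -0.90 to -0.47 for Sec23a. Propeptide removal had 2 of 5 genes above 0 and a median of -0.09. Furin was at -0.09, Adamts14 at -0.25, Adamts2 at 0.14 and Tll1, a relative of Bmp1, at 0.32. The tested probes ran from -0.26 to 0.20 for Adamts2 and -0.09 to 0.05 for Furin. Without siControl replicate 2, Adamts2 was at 0.00018, Adamts14 at -0.0087 and Tll1 at 0.57. Tll1 was at 0.07 without siControl replicate 1. None of these genes passed the threshold.

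The fibrillar collagen genes, whose products the lysyl oxidases crosslink, had 6 of 8 values above 0 and a median of 0.21, and 0 of 8 passed. Here Col5a1 stood at 0.49, Col2a1 at 0.54, Col3a1 at 0.40 and Col5a2 at -0.70. The tested probes of Col3a1 ran from 0.28 to 1.28. Without siControl replicate 2 the values were 0.30 for Col5a1, 0.22 for Col2a1, 0.08 for Col3a1 and -0.98 for Col5a2. On all arrays, Col5a2, whose other probe stood at 0.17, was at -0.26 as the mean of its probes. Of 10 elastic fibre genes 7 lay above 0, with a median of 0.08. Fbln5, which binds elastin, was at 0.25, Mfap5 at 0.23, Ltbp2 at 0.08 and Ltbp4 at -0.12, with its other probe at 0.05. Of 12 fibril organisers 4 lay above 0, with a median of -0.04. Thbs2 at -0.58 (limma adjusted p = 0.0646), Lum at -0.37 and Tnxb at -0.63 had siTIMP1 arrays below both siControl arrays, and Postn stood at 0.55, or 0.17 without siControl replicate 2. Among collagen uptake and breakdown genes 7 of 13 lay above 0, with a median of 0.02, where Mmp2 was at 0.39, Ctsk, a collagen-degrading cathepsin, at 0.19, Mmp9 at -0.63 and Itga1 at -1.30. Mmp2 was at 0.19 without siControl replicate 2, Mmp9 at -0.32 as the mean of its probes, and Itga1 ran from -2.07 without siControl replicate 1 to -0.34 under normexp background correction. Of the 8 genes listed as other transglutaminases, which include the factor XIII subunits, 1 was tested, Tgm3, at 0.25. It was at 0.0095 without siControl replicate 2 and 0.49 without siControl replicate 1. P4ha2 was the only called gene of the 8 lists.

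**Figure D5:**
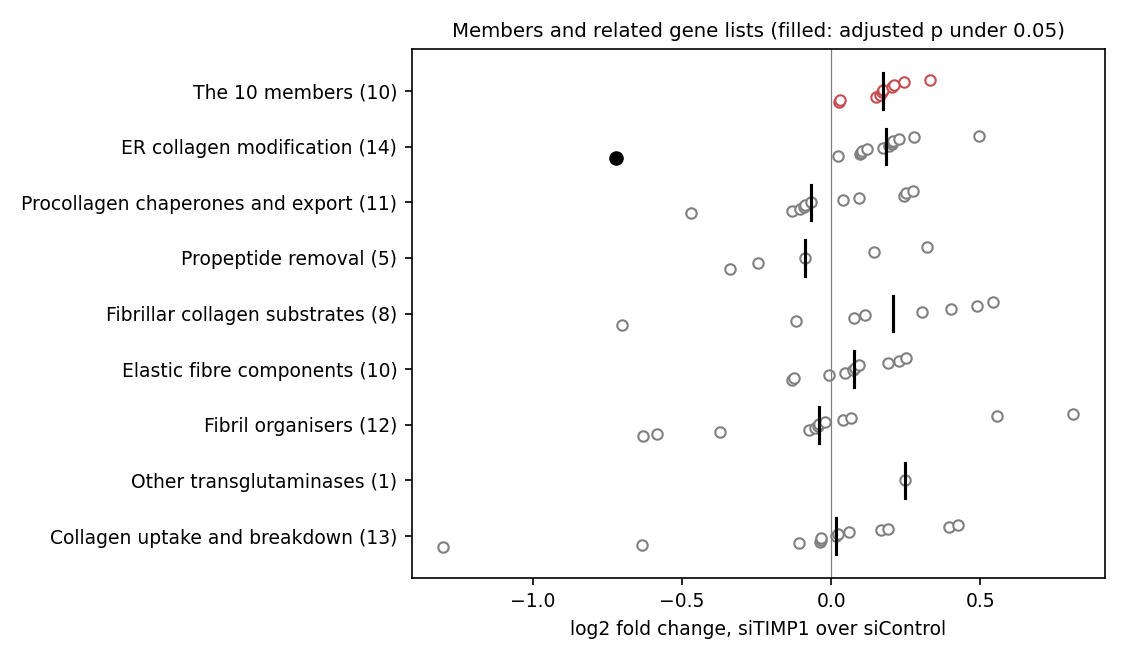
Log2 fold change, siTIMP1 over siControl, of the 10 members and of the tested genes of each list, with the number tested in brackets, open circles for genes not called and bars for medians. The 1 filled point is P4ha2 at -0.72, and the member median of 0.17 lies near those of collagen modification, 0.18, and the fibrillar collagens, 0.21.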

How the data were processed

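Gene expression was measured in 4 samples, 2 siTIMP1 and 2 siControl, grouped by their titles, with replicates numbered in accession order. The authors deposited spot intensity values as scanner output, for which the submitters' processing notes name Agilent Feature Extraction 11.5.1.1. The processed intensity is background-subtracted and probe coordinates are those of mm9, per the file headers. The deposited value table holds log2 values that equal log2 of the processed signal less a constant of 6.90 to 6.96 per array, within 0.005, with medians of -3.99 and -3.91 for siTIMP1 and -3.94 and -3.86 for siControl. Its direction and scale were settled by this comparison.

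Control spots and spots marked as outliers (136 to 250 per array) were left out, log2 signals were scaled to the 75th percentile of all non-control spots of each array, and spots of a probe were averaged. Tested were 26015 of 56605 probes, those with a value on all 4 arrays whose siTIMP1 arrays, or whose siControl arrays, were both well above background. The comparison used limma 3.58.1 (lmFit and eBayes, trend allowed) under R 4.3.3. P-values were adjusted by Benjamini-Hochberg over the 26015 probes, and an adjusted p under 0.05 was called. The fit was tested on simulated data with 2 arrays per group. Planted fold changes, all larger than that of any member, were recovered on average, and detection of changes as small as the members' was not tested. A larger share of the calls was false than the threshold allows, so calls close to it are less certain than their adjusted p. A gene stands by its brightest tested probe. RefSeq accessions matched for 32994 probes and updated 1535 symbols, 0 of them members. Figures were drawn with matplotlib 3.10.9.

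Named in the text were all members with their probes, Timp1, and per list each called gene with the genes of smallest unadjusted p, 4 in all. The members and lists were chosen with earlier results of these data known. Alternatives changed the background correction, scaling, filter, variance model, outlier spots, probe rule, source of values, threshold and arrays. No probe sequence of Lox is reported here.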

Additional observations from a re-analysis of the deposited data

Results flagged for a closer look

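Each of the 3 member probes that were not tested had at least 1 siTIMP1 array well above background and higher than both siControl arrays. Only this direction was looked for, and its share among all untested probes was not counted. The further Loxl2 probe, at chr14:70095254-70095313, was at -2.91 on siTIMP1 replicate 2 and -5.35 on siTIMP1 replicate 1, with -4.68 and -4.43 on the siControl arrays. Only the first of these was well above background. An Mrc2 probe at chr11:105205097-105205156 was at -3.98 and -3.79 in siTIMP1 cells and -4.47 and -4.02 in siControl cells. It was well above background on siTIMP1 replicate 1 and on siControl replicate 2. Another, at chr11:105187039-105187098, was at -4.31 and -4.46 in siTIMP1 cells and -4.49 and -4.59 in siControl cells, and was well above background on 1 array. These values stand near the detection limit, no difference was tested, and groups of 2 arrays are too small to look for outlying arrays.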

How the results depend on the processing

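No member was called under any alternative that kept all 4 arrays. With 1 array left out in turn, on the same probes and with the lone array assumed to vary like the other group, 0 to 3 members were called, the 3 being Lox, Loxl1 and Pcolce without siControl replicate 1. Of 150 values of members under alternatives, 141 kept direction and side of the threshold, 3 passed it and 6 changed sign. The members' median of 0.17 was 0.13 under quantile normalization and 0.13 with the percentile over detected probes, and 0.079 to 0.21 with 1 array left out. The count of 7 members with siTIMP1 above siControl stood beside 29.8% of all tested probes. It was 4 with the percentile over detected probes (23.3% of probes) and 5 under quantile normalization (25.6%). In the authors' value table it was 6 (29.0%). It was 5 (29.4%) with the percentile taken without outlier spots, an alternative chosen after seeing the data. Loxl2 was at -0.010 and Tgm2 at -0.013 with the percentile over detected probes. With 1 array left out, Loxl2 ran from -0.049 (without siTIMP1 replicate 2) to 0.11 and was -0.023 without siControl replicate 2, Tgm2 ran from -0.0070 (without siControl replicate 1) to 0.063, and Serpinh1 from -0.075 (without siControl replicate 2) to 0.40. Of 29 named genes of the pathway lists, 22 moved by over 1.5 times or changed sign under at least 1 alternative, and 27 kept their sign throughout. Ltbp2 was at -0.0020 under quantile normalization and Fkbp14 at -0.031 as the mean of its probes. Timp1 stayed at -5.22 without a variance trend but with an adjusted p of 0.134, and ran from -5.41 to -5.04 with 1 array left out, with adjusted p of 0.137 and 0.184 without siTIMP1 replicate 1 and 2. The single pathway call became 0 without a trend, and 2 under quantile normalization, the percentile over detected probes, no filter, robust eBayes or an adjusted p under 0.1, and 0 to 14 with 1 array left out. P4ha2 was not called without a trend (adjusted p = 0.153) or without either siTIMP1 array. Over all probes 179 were called, 120 under normexp, 137 with outlier spots kept or from the value table, 227 with the percentile over detected probes, 310 under robust eBayes, 458 without a filter, 565 at an adjusted p under 0.1, 0 without a trend or without either siTIMP1 array, 1323 without siControl replicate 1 and 392 without siControl replicate 2. The share of tested probes above 0 was 52.9%, and 46.3% with the percentile over detected probes. The causes were not tested. No slide or scan block was run, with 1 slide and 1 scan. No paired analysis was possible because the replicate numbers follow accession order and pair no samples. Dim probes, such as those of Loxl4, limit what could be detected.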
